A study of Sus scrofa with 6 samples.

Results

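Unannotated intergenic lncRNAs (lincRNAs) were described in longissimus thoracis (LT) and semitendinosus (ST), 2 skeletal muscles of the pig, Sus scrofa. They are transcripts of the submitters' assembly, typed as lincRNA, the intergenic class, and marked as having no entry in the annotation. Members were selected on their level: an FPKM (fragments per kilobase of transcript, scaled to the mapped fragments of the library) above 0.1 in at least 1 of 6 libraries. Of 72511 transcripts listed, 2965 were unannotated lincRNAs and 2949 of these passed, in 2519 loci (gene IDs of the files). At the edge of the rule, the highest FPKM of LNC_011939, LNC_000202 and LNC_000452 was 0.107, 0.11 and 0.11, and that of LNC_010064, LNC_011448 and LNC_011759, which were left out, was 0.0962, 0.0982 and 0.0986. The 3 LT and 3 ST libraries came from wild-type Min pigs of the same age, without treatment. Both muscles came from the same animals per the methods, which do not tie library numbers to animals. Each library was total RNA of whole muscle, depleted of ribosomal RNA and read with strand, so a lower level can mean fewer cells of a type or less RNA per cell, which cannot be told apart.

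A lincRNA is a spliced or unspliced RNA of more than a short minimum length, transcribed from the space between protein-coding genes and without a detectable open reading frame. Some lincRNAs act on the gene beside them, some act elsewhere in the cell, and for many no function is known. In skeletal muscle, several take part in myoblast differentiation and in the choice of fibre type. As a class they are known for low levels, few exons and narrow expression. LT is a long back muscle and ST a hindlimb muscle, and homeobox genes that record position along the body are known to differ between muscles of different regions.

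The tissue label was checked on marker genes. The 6 skeletal muscle markers found in the files, of 12 listed, summed to 12848 to 16213 FPKM in LT and 12139 to 12323 in ST. The 5 endothelial markers found summed to 50.6 to 76.1 in LT and 119 to 176 in ST, and 2 of them passed the test between muscles. Summed levels in LT and ST were 145 to 277 and 132 to 241 for 10 adipocyte markers, 634 to 1351 and 677 to 1248 for 8 fibroblast markers, 681 to 1057 and 595 to 1034 for 7 blood and leukocyte markers, 0.849 to 18.5 and 0.499 to 11 for 4 nerve markers, and 2.15 to 3.99 and 2.86 to 4.86 for 4 satellite cell markers. None of these 5 lists held a gene that passed the test, and in all lists LYZ alone stayed at or below 0.1. Mitochondrial transcripts took 5.36% to 8.16% of all FPKM in LT and 12.1% to 15.4% in ST.

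Expression of the class was low and narrow, close to that of the antisense class. The median lincRNA had a mean of 0.102 FPKM over the 6 libraries (quartiles 0.0613 and 0.182), beside 0.148 for 7935 unannotated intronic and 0.116 for 1553 unannotated antisense lncRNAs under the same filter. A mean above 1 FPKM was found for 105 lincRNAs (3.56%), beside 6.68% of intronic and 2.58% of antisense lncRNAs. In a single library, 1167 to 1426 lincRNAs of LT and 1237 to 1450 of ST exceeded 0.1, and 90 to 103 exceeded 1. The number detected thus overlapped between the muscles, at 1269 ± 138 in LT and 1323 ± 112 in ST (SD, n = 3).

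Breadth set the lincRNAs apart mainly from the intronic class. Of the lincRNAs, 1051 (35.6%) exceeded 0.1 in 1 library alone, beside 20.4% of intronic and 30.3% of antisense lncRNAs. In all 6 libraries, 284 lincRNAs (9.63%) exceeded 0.1, beside 25.2% of intronic and 12.4% of antisense lncRNAs. A threshold of 0.1 in at least 2 libraries would have kept 1898 lincRNAs, in at least 3 libraries 1269. Both muscles held a library above 0.1 for 1539 lincRNAs, LT alone for 648 and ST alone for 762. These are descriptions, since the same values chose the members.

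**Figure D1:**
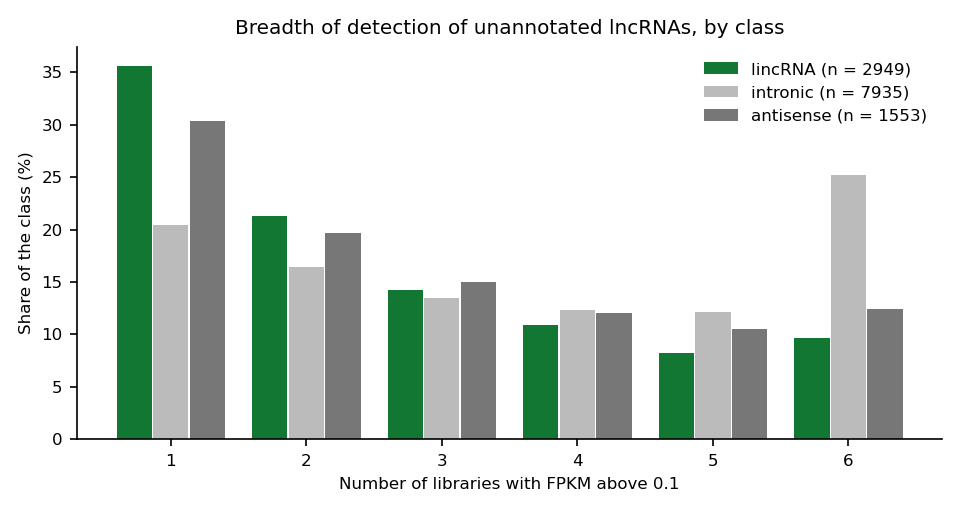
Bars give the share (%) of each class of unannotated lncRNA, y axis, that exceeded 0.1 FPKM in exactly 1 to 6 libraries, x axis. The lincRNA bars fall from 35.6% in 1 library to 8.24% in 5 and stand at 9.63% in 6, while the intronic class is highest at 6 libraries, 25.2%.

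The 284 broadly detected lincRNAs had a median mean level of 0.381 FPKM and a median coefficient of variation over the 6 libraries of 41.7% (quartiles 30.8% and 55.5%). LNC_005586 (chr2:40718742-40720360, plus strand) was among the steadier, at 17.6, 17.3 and 19 FPKM in LT and 20.4, 16.4 and 24.2 in ST. It overlaps the RefSeq interval of TSG101, a component of the endosomal sorting machinery, and the LT and ST values overlapped. LNC_009832, which overlaps the RefSeq interval of SRF and lies 358 bp downstream of SRF in the files, the serum response factor that drives many muscle promoters, had 2.56, 2.37 and 1.63 in LT and 1.98, 2.1 and 2.48 in ST. Here too, both muscles overlapped.

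Most lincRNAs were short and had few exons. The median length was 547 bases (quartiles 314 and 1092, range 201 to 15207), against 867 for intronic and 629 for antisense lncRNAs. Exactly 2 exons were assembled for 2076 lincRNAs (70.4%), 3 exons for 495 and 4 or more for 378. The corresponding share with 2 exons was 15.2% among intronic and 66.5% among antisense lncRNAs. The longest were LNC_004762 (15207 bases, chromosome 16), LNC_002935 (11319 bases, 5597 bp from BHLHE40, a clock-linked repressor) and LNC_004222 (10952 bases, 230 bp from ASB1). All 3 were detected in both muscles: LNC_004762 had 0.157, 0.239 and 0.211 in LT and 0.18, 0.275 and 0.313 in ST. Most exons, 22, were given to LNC_012083, LNC_012082 and LNC_011803, which all lie on unplaced scaffolds.

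The gap between the exons was sometimes very short. For lincRNAs of 2 exons it is the genomic span less the transcript length, with a median of 1217 bases (quartiles 288 and 5789, range 20 to 248720). It was under 50 bases for 153 of them (7.37%). The same count was 1 of 1210 among intronic and 24 of 1033 among antisense lncRNAs, 5 of 558 among annotated lncRNAs and 0 of 1059 among annotated protein-coding transcripts of 2 exons. The 153 lincRNAs were longer than the other lincRNAs of 2 exons (median 1038 against 443 bases) and had a higher median level (0.14 against 0.0924 FPKM). They were also detected more broadly, with 17% above 0.1 in all 6 libraries against 7.8%.

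Members were unevenly placed in the genome. On the assembled chromosomes of build Sscrofa11.1 lay 2417 lincRNAs, on unplaced scaffolds 520 (17.6%) and on the mitochondrial genome 12, while no intronic or antisense lncRNA was on a scaffold. Chromosome 1 held most (215), followed by chromosomes 6 (189) and 13 (178). Per Mb, up to the last listed base, the order differed. Chromosome 1 held 0.784, chromosome 6 held 1.11 and chromosome 13 held 0.854, against 1.38 on chromosome 5. Of 100 scaffolds with a member, AEMK02000452.1 held 83 and AEMK02000682.1 held 71. Scaffolds took 68.1% to 81.4% of the summed lincRNA FPKM of a library, and the 10 highest lincRNAs took 69.1% to 77.3%.

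The highest levels therefore described a few scaffold loci. LNC_012056 (AEMK02000695.1:11771-14743) had the highest mean, with 387, 227 and 591 FPKM in LT and 890, 473 and 551 in ST. LNC_011787 (AEMK02000452.1:2383184-2389305) followed with 295, 284 and 206 in LT and 468, 368 and 363 in ST, every ST value above every LT value (adjusted p = 0.456, limma). LNC_011855 (AEMK02000489.1:9810-11347) had 230, 413 and 334 in LT, with 235, 364 and 272 in ST. The first and the last of these overlapped between muscles. An unannotated mRNA with the gene ID of LNC_012056 overlaps it on the same strand, so the division of reads between them is uncertain.

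On scaffold AEMK02000489.1, 28 lincRNAs were assembled in 3 loci, 12 on the plus and 16 on the minus strand, and many share a start or an end. LNC_011829 had 477, 122 and 0 FPKM in LT and was listed at 0 in ST, whereas LNC_011833 of the same locus was listed at 0 in LT and had 0, 257 and 389 in ST. LNC_011828 reached 1036 FPKM in LT replicate 1 against 0 in LT replicate 2. The sum of the 12 transcripts of that locus, XLOC_126680, came to 1692, 289 and 1358 FPKM in LT, with 205, 657 and 842 in ST, so the sum varied less (coefficient of variation 70.1%) than its median transcript (187%). These overlapping transcripts share reads, and their single levels are uncertain.

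The 12 mitochondrial lincRNAs were all on the minus strand, began at base 1 and ended between bases 1082 and 1115, ahead of the first RefSeq mitochondrial gene, which starts at base 1176. That stretch is the control region, the non-coding part of the mitochondrial genome from which transcription starts. Each had 2 exons, and all 12 gaps, of 20 to 110 bases, were multiples of 10. The highest, LNC_012100, had 22.8, 9.05 and 29 FPKM in LT and 37.6, 14.2 and 36.6 in ST, with overlapping groups, and 10 of the 12 were listed at 0 in at least 1 library. Summed over the 12, the level came to 39.8, 45.1 and 34.5 FPKM in LT, with 53.3, 75.2 and 43.3 in ST. These sums overlapped between the muscles (log2 fold change 0.49 ± 0.24, SE, adjusted p = 0.381, limma on sums per gene ID). The share of mitochondrial transcripts was higher in ST, as given above, and its part in these levels was not tested.

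Distance to protein-coding genes was measured as the gap between the ends of the spans on the same sequence. A protein-coding gene was listed for 2824 lincRNAs, at a median of 6696 bp (quartiles 115 and 39294). Within 10000 bp lay 55.8% and within 100000 bp 87.3%. Yet for 1156 lincRNAs the nearest gene was itself unannotated, and 317 carried the same gene ID as an unannotated mRNA. With annotated genes alone, 2429 lincRNAs had a neighbour at a median of 16993 bp, 40.1% within 10000 bp and 82.1% within 100000 bp, and only 1 lincRNA overlapped such a gene. The other 520 had no annotated protein-coding gene on their sequence, the same number as lay on scaffolds.

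Orientation to the nearest annotated gene was most often head to head. On the opposite strand and upstream lay 792 lincRNAs (32.6%), at a median of 14002 bp, and 276 of these were within 5000 bp. Downstream on the same strand lay 664 (27.3%), upstream on the same strand 574 (23.6%) and downstream on the opposite strand 398 (16.4%). Within 1000 bp, 168 of 324 lincRNAs had the divergent arrangement.

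Members farther from a gene were slightly lower. lincRNAs within 1000 bp of an annotated gene had a median mean of 0.13 FPKM, those up to 10000 bp 0.1, those up to 100000 bp 0.0905 and those beyond 0.0852. The medians of their nearest genes were 4.45, 3.95, 2.84 and 1.94 FPKM. The lincRNA lay below its gene in 92% of the nearest set and in 65.7% of the farthest. Across the 2429 lincRNAs, the rank correlation of the lincRNA's mean level with that of its gene was 0.11 and with the distance -0.14, both weak and both across transcripts that share the same libraries.

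Many members overlap genes of a second annotation. Of 2429 lincRNAs off the scaffolds, 745 (30.7%) overlapped a lncRNA gene of RefSeq on the same build, 570 (23.5%) a protein-coding gene and 39 both, while 1118 (46%) overlapped none. RefSeq strand was not used here. The protein-coding overlaps were detected more broadly, with 16.3% above 0.1 in all 6 libraries against 6.08% of those without a RefSeq gene. For 180 of the 570, the overlapped gene was also the nearest gene with a symbol in the files.

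Some RefSeq genes reach further than in the files. The files end PPARGC1A, the coactivator PGC-1 alpha that drives mitochondrial biogenesis, at base 17961909 of chromosome 8, and RefSeq lets it run to base 18527953. LNC_010448 (chr8:18334592-18346954, plus strand, 2 exons) lies in between, opposite to the strand of PPARGC1A. It measured 0.104, 0 and 0.103 in LT and 0.517, 0.713 and 0.541 in ST, every ST value above every LT value. The log2 fold change was 2.09 ± 0.42 (SE, limma, on FPKM + 0.1), with an adjusted p of 0.239. PPARGC1A itself had 4.49, 5.81 and 3.05 in LT and 10.5, 68.7 and 23.1 in ST (adjusted p = 0.0929).

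ST was compared with LT by limma on log2(FPKM + 0.1), fitted on all 52102 transcripts above 0.1 in at least 1 library. No lincRNA had an adjusted p under 0.05 with an absolute log2 fold change above 1, while 76 of all transcripts did (0.146%). By the unadjusted p, with both limits kept, 103 lincRNAs (3.49%) were higher in ST and 90 (3.05%) lower, beside 4.12% and 2.84% of all transcripts. Without the limit on the fold, the unadjusted p alone passed for 207 (7.02%), beside 9.69% of all transcripts. Every ST value was above every LT value for 167 lincRNAs (5.66%, all transcripts 9.87%) and below for 135 (4.58%, all transcripts 6.44%). The share of lincRNAs that differed was thus near or below that of all transcripts. The median log2 fold change was 0.09 for lincRNAs and 0.09 for all transcripts.

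The higher count depended on ST replicate 2. Without it, 190 lincRNAs were higher and 79 lower in ST at the same limits, and without each of the other libraries the higher count was 71 to 116. Replicate 2 was the lowest ST value for 54 of the 103 higher lincRNAs and the highest ST value for 28. Among the 90 lower ones it was the lowest ST value for 16 and the highest for 28. Of the 193 in both directions, 77 had passed the filter in both muscles, 52 in LT alone and 64 in ST alone, and the last 2 sets could differ in 1 direction only.

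**Figure D2:**
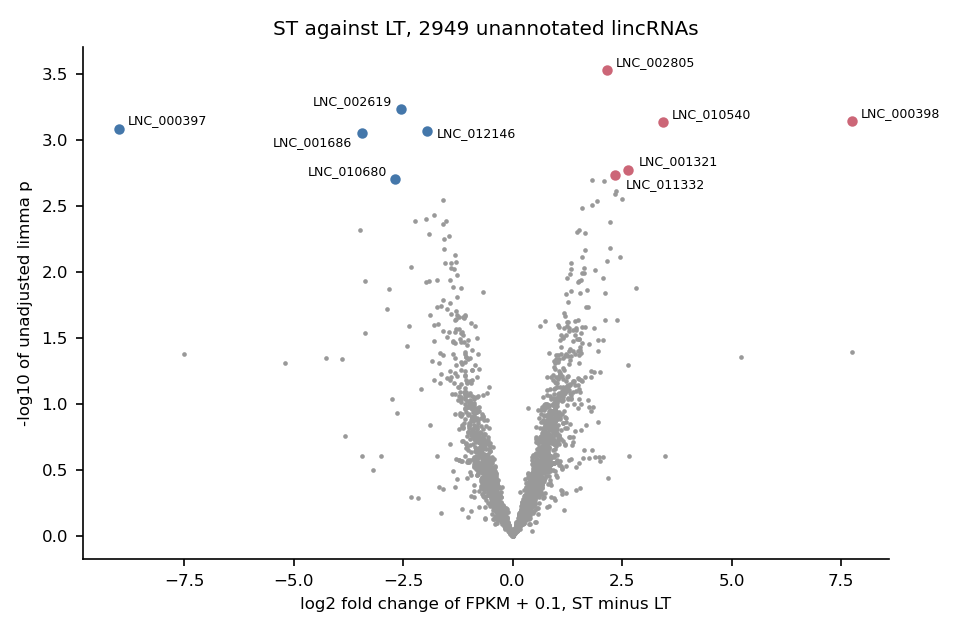
Each point is 1 of 2949 lincRNAs, with the log2 fold change of FPKM + 0.1 (ST minus LT) on the x axis and -log10 of the unadjusted limma p on the y axis. The 10 labelled members have the smallest p with 3 same-signed differences between same-numbered libraries; no adjusted p was under 0.05.

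The clearest member was LNC_002805 (chr13:206536496-206542522, plus strand, 5040 bases). It had 0.105, 0.103 and 0.124 FPKM in LT and 0.934, 0.868 and 0.729 in ST, with no overlap and little spread. The log2 fold change was 2.16 ± 0.31 (SE), with an unadjusted p of 0.000298 and an adjusted p of 0.106. An unannotated mRNA with the same gene ID overlaps it on the same strand, so the division of reads between them is uncertain. Its nearest gene with a symbol, HSF2BP, a meiotic recombination factor, lay 2832 bp away and had 8.32 ± 0.54 FPKM in LT and 6.14 ± 0.92 in ST (SD, n = 3). HSF2BP was thus not higher in ST (adjusted p = 0.319 in the test on sums per gene ID).

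LNC_010540 (chr8:70973960-70996070, plus strand) had 0.403, 0.767 and 0.116 FPKM in LT and 6.75, 3 and 5.52 in ST. All ST values exceeded all LT values, and the log2 fold change was 3.44 ± 0.58 (SE) with an adjusted p of 0.165. PARM1, a membrane mucin-like protein, ends 77402 bp upstream on the same strand, with 1.95 ± 0.55 FPKM in LT and 3.17 ± 1.34 in ST (adjusted p = 0.477). LNC_001321, 51372 bp upstream of KLF6, a zinc-finger transcription factor, had 0.0488, 0 and 0.208 in LT and 0.812, 1.35 and 0.742 in ST (log2 fold change 2.64 ± 0.52, adjusted p = 0.225). KLF6 had 23.8, 27.8 and 17.4 in LT and 29.1, 45.5 and 35 in ST, again without overlap (adjusted p = 0.242).

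Other members were higher in LT. LNC_002619 (chr13:92718559-92719934), 22326 bp downstream of MBNL1, a regulator of muscle splicing, had 0.335, 0.661 and 0.732 in LT and 0, 0.0357 and 0 in ST (log2 fold change -2.56 ± 0.41, adjusted p = 0.146). MBNL1 had 129 ± 25 FPKM in LT and 101 ± 8.3 in ST (SD, n = 3; adjusted p = 0.519). LNC_010680 on chromosome 8 had 0.984, 2.21 and 2.02 in LT and 0.434, 0.107 and 0.0821 in ST (log2 fold change -2.68 ± 0.54, adjusted p = 0.238). For both, the lowest LT value was above the highest ST value.

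LNC_001686 (chr11:19612697-19616335), which starts 164 bp from SUCLA2 on the opposite strand, had 0.85, 0.431 and 2.39 in LT and was listed at 0 in every ST library (adjusted p = 0.181). SUCLA2, which encodes a subunit of the citric acid cycle enzyme succinyl-CoA ligase, had 212, 211 and 169 FPKM in LT and 242, 215 and 210 in ST, so the gene beside it was present throughout. Its locus was too: summed over its 3 lincRNAs, XLOC_021022 had 5.37, 5.02 and 3.9 in LT and 1.73, 3.38 and 1.18 in ST (log2 fold change -1.26 ± 0.35, adjusted p = 0.143). LNC_012146 (chrX:29495791-29651291, plus strand) had 0.259, 0.355 and 0.261 in LT and was listed at 0 in ST (adjusted p = 0.177). It overlaps the RefSeq interval of DMD, the dystrophin gene, opposite to the strand that the files give DMD. With the other lincRNA of its locus the sum was 0.259, 0.355 and 0.404 in LT, against 0.0358, 0.0442 and 0 in ST (adjusted p = 0.0786).

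In all, 9 lincRNAs were above 0.1 in every LT library and listed at 0 in every ST library (0.305% of members, all transcripts 0.155%). The reverse held for 10 (0.339%, all transcripts 0.18%). Of the latter, LNC_012137 on the X chromosome had 1.18, 0.128 and 0.461 in ST, LNC_011332 on chromosome 9 had 0.82, 0.294 and 0.264, and LNC_008043 on chromosome 5 had 0.24, 0.217 and 0.863. LNC_012137 starts 2021 bp from SMPX, a small protein of stretched muscle fibres, on the opposite strand. SMPX passed the test on sums per gene ID, with 105, 84.9 and 106 FPKM in LT and 334, 228 and 357 in ST (log2 fold change 1.61 ± 0.24, adjusted p = 0.0415). A listing at 0 carries no count of fragments, so no fold is given.

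**Figure D3:**
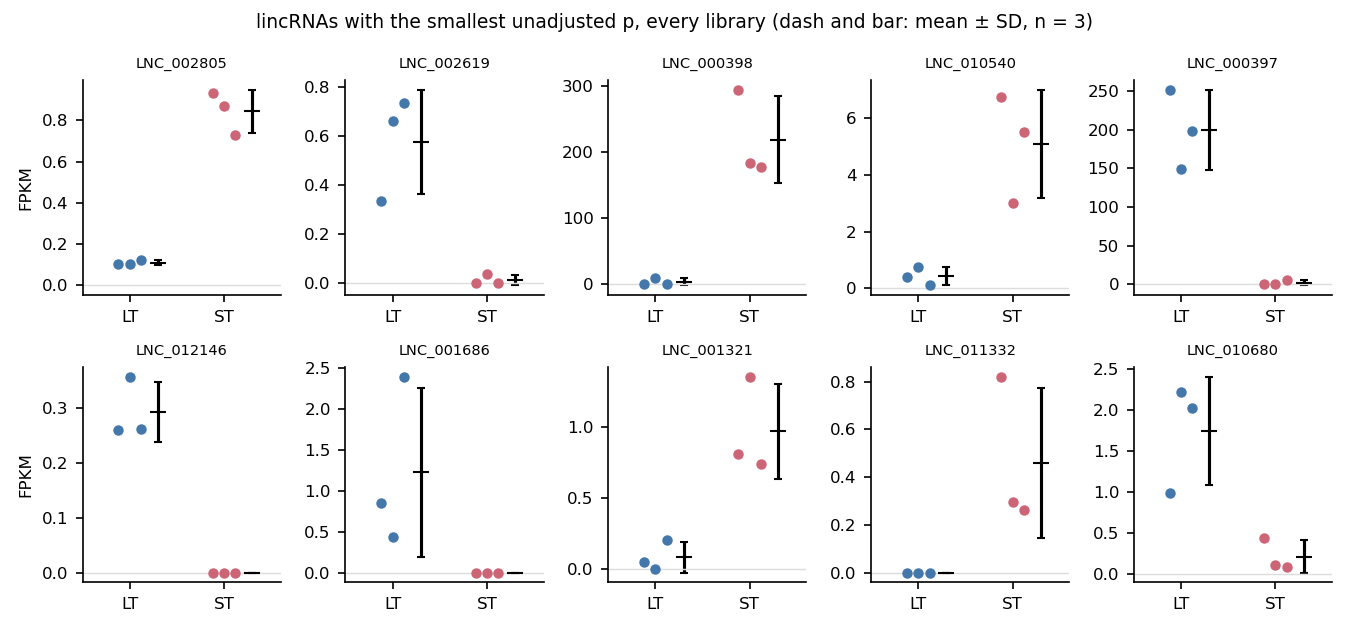
FPKM (y axis, linear, a separate scale per panel) of the 10 lincRNAs of smallest unadjusted p in 3 LT (blue) and 3 ST (red) libraries; dash and bar give mean ± SD. In each panel the groups do not overlap; with 3 libraries against 3, the exact 2-sided permutation p cannot go below 0.1, the value of all 10.

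Very large fold changes of opposite sign came from transcripts of 1 locus. LNC_000397 (chr1:182978724-182979103, plus strand, 262 bases) and LNC_000398 (chr1:182978737-182979103, 249 bases) end at the same base and start 13 bases apart. LNC_000397 had 252, 149 and 198 FPKM in LT and 0, 0 and 5.66 in ST (adjusted p = 0.176). LNC_000398 had 0.259, 9.37 and 0.184 in LT and 295, 184 and 177 in ST (adjusted p = 0.164). Each muscle was thus assigned almost wholly to a different start, and LNC_000398 took 0.0929% to 5.92% of the sum in LT and 96.9% to 100% in ST.

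Summed, the muscles overlapped. The locus had 252, 158 and 198 FPKM in LT and 295, 184 and 183 in ST, a log2 fold change of 0.11 ± 0.28 (SE) with an adjusted p of 0.879. LNC_000899, on the opposite strand and within the same interval, had 48.5, 30.4 and 43 in LT and 63.7, 32.5 and 35.4 in ST. Both plus-strand transcripts cover nearly the same bases, so the division of reads between them is uncertain. In 3 loci, 1 member was higher and another lower in ST at the unadjusted limits, this one and 2 on AEMK02000489.1.

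**Figure D4:**
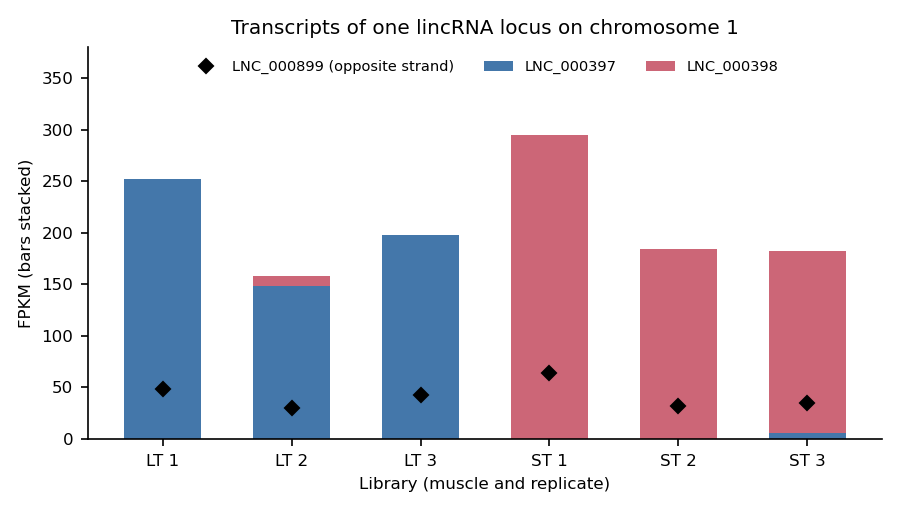
Stacked bars give the FPKM of LNC_000397 (blue) and LNC_000398 (red) in each library, diamonds that of LNC_000899 on the opposite strand. The colour changes with the muscle while bar height, 158 to 252 in LT and 183 to 295 in ST, overlaps.

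At the level of loci, lincRNA FPKM was summed per gene ID and tested with the sums of all other genes, 30851 in all. Of 2519 lincRNA loci, 4 passed the adjusted limit (0.159%), beside 0.405% of all sums. LNC_002805, LNC_010540 and LNC_002619 are each the only lincRNA of their locus, with the values above, and had adjusted p of 0.0252, 0.0408 and 0.0415 in this test. LNC_002619 entered the test through its LT libraries alone. The other, XLOC_090083 (chr5:9042023-9054175, minus strand), holds LNC_008225 and LNC_008226 and lies 34577 bp from PDGFB, a growth factor of vessel-wall and stromal cells. It had 0.0248, 0.101 and 0.0665 in LT and 1.4, 0.568 and 0.718 in ST (log2 fold change 2.54 ± 0.39, adjusted p = 0.0435). Leaving out any 1 of the 6 libraries ended all 4 calls, with 10 other loci passing without ST replicate 2 and 0 without each of the others, and over all alternatives their adjusted p reached 0.32 to 0.341. Their log2 fold changes without 1 library stayed at 2.09 to 2.25 for LNC_002805, 2.9 to 3.9 for LNC_010540, -2.85 to -2.38 for LNC_002619 and 2.2 to 2.78 for XLOC_090083.

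LNC_004437 (chr15:110849048-110859077, minus strand) had a higher level than these. It measured 7.82, 11.6 and 9.29 FPKM in LT and 0.738, 4.01 and 0.126 in ST. LNC_004437 did not pass the test (log2 fold change -3.38 ± 0.98, SE, adjusted p = 0.38, limma). It lies 77293 bp from CREB1, a cAMP-responsive transcription factor, and 15133 bp from CCNYL1, a cyclin Y relative. CCNYL1 had 37.7, 34.8 and 45.5 in LT and 11.5, 23.8 and 9.4 in ST (adjusted p = 0.0862), while CREB1 had 2.51, 2.44 and 3.23 in LT and 4.22, 3.71 and 3.94 in ST (adjusted p = 0.255). These gene levels are sums over the protein-coding transcripts of a gene ID, and a single transcript can differ from them. The ST value nearest to LT was that of replicate 2 for both LNC_004437 and CCNYL1.

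The gene nearest to a lincRNA was tested too. Of 1598 such genes, 14 passed (0.876%, all sums 0.405%), 11 higher and 3 lower in ST. All sums also hold lncRNA loci, and the share among protein-coding sums alone was not measured. These shares therefore do not compare like with like. Higher in ST were VEGFA, the vascular growth factor (13.8 ± 2.9 FPKM in LT, 41.3 ± 0.94 in ST, SD, n = 3), PECAM1, an endothelial adhesion molecule (31.6 ± 8 and 81.5 ± 8), PTPRB, an endothelial phosphatase, SMPX, IRS2, an insulin signalling adaptor, NNT, a mitochondrial transhydrogenase, and DPP4, a peptidase. LINGO1 (4.78 ± 1.52 and 0.804 ± 0.374) and HOXC8 were lower. The endothelial markers summed above, which include PECAM1 itself, were also higher in ST, and their part was not tested. The lincRNAs beside these genes were low. LNC_009838, 4560 bp upstream of VEGFA, had 0.224, 0.166 and 0.0145 in LT and 0.029, 0.0443 and 0 in ST (adjusted p = 0.665). LNC_009837, 23904 bp upstream, had 0.0554, 0.0845 and 0 in LT and 0.123, 0.2 and 0 in ST (adjusted p = 0.787). Farther off, LNC_010180 had 0, 0 and 0.0309 in LT and 0.353, 0.114 and 0.0967 in ST, and LNC_010182 0.0162, 0.0318 and 0.00757 in LT and 0.463, 0.058 and 0.285 in ST (adjusted p = 0.459 and 0.477). LNC_010179 and LNC_010181, also farther off, had log2 fold changes of 0.63 ± 0.56 and 0.59 ± 0.52 (SE, adjusted p = 0.724 for both, limma). LNC_010181 shares a locus with LNC_010182. Their sum was 0.0162, 0.0318 and 0.0761 in LT, against 0.463, 0.252 and 0.382 in ST (log2 fold change 1.72 ± 0.37, adjusted p = 0.0862). Among the lincRNAs near VEGFA, LNC_009838 alone had a negative log2 fold change, and none passed the adjusted limit.

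Around patterning genes, 34 lincRNAs in 29 loci lay within 100000 bp of a gene of the limb, trunk and axial list, of which 85 of 102 genes were found. At the unadjusted limits 4 of the 34 were higher and 5 lower in ST, beside 4.12% and 2.84% of all transcripts, with none passing the adjusted limit. The median log2 fold change was 0.27, beside 0.09 for all transcripts. The HOXC cluster of chromosome 5 held members of both directions. HOX genes are arranged in the order of the body regions they specify, with higher numbers towards the tail and limb end.

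LNC_007960 (chr5:19218004-19220718) starts upstream of HOXC8, 1042 bp from it on the same strand. It had 0.202, 0.343 and 0.343 FPKM in LT and 0.0729, 0.0298 and 0.0634 in ST (log2 fold change -1.34 ± 0.37, adjusted p = 0.358). HOXC8 had 7.47, 6.65 and 5.92 in LT and 0.35, 0.262 and 0.242 in ST (log2 fold change -4.14 ± 0.22, adjusted p = 0.000349). Both were lower in every ST library than in every LT library, and the gene alone passed the test.

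Beside HOXC9, LNC_008290 on the opposite strand, 129 bp away, had 1.13, 1.88 and 1.53 in LT and 0.692, 0.408 and 0.909 in ST, and LNC_007959, 168 bp upstream, had 0.343, 0.589 and 0.419 and 0.159, 0.0923 and 0.209. Their adjusted p were 0.443 and 0.442. An unannotated mRNA with the gene ID of LNC_008290 overlaps it on the same strand, so the division of reads between them is uncertain. HOXC9 itself was 8.08 ± 0.31 FPKM in LT and 1.25 ± 0.22 in ST (SD, n = 3; log2 fold change -2.61 ± 0.20, adjusted p = 0.00348). RefSeq starts HOXC9 at base 19212490, ahead of the start at base 19212905 in the files, and both lincRNAs reach into that stretch.

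Towards the other end of the cluster the direction was opposite. LNC_007958 (chr5:19196117-19197074), 733 bp upstream of HOXC10, was listed at 0 in LT and had 0.458, 0.152 and 0.285 in ST (adjusted p = 0.26). HOXC10 had 0.297, 0.584 and 1.33 in LT and 2.98, 3.51 and 2.9 in ST (log2 fold change 2.14 ± 0.42, adjusted p = 0.073). An unannotated protein-coding locus over the same bases on the other strand, XLOC_090464, was listed at 0 in LT, had 3.08, 1.33 and 4.16 in ST and passed the test (adjusted p = 0.00348).

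Other HOX clusters held further members. LNC_004116 (chr15:81936120-81951623, 5 exons), 591 bp downstream of HOXD8, had 3.08, 1.34 and 3.03 in LT and 0.183, 1.2 and 0 in ST (log2 fold change -2.87 ± 0.93, adjusted p = 0.427), where HOXD8 had 37.1 ± 7.7 and 4.25 ± 1.37 (SD, n = 3; adjusted p = 0.00348). LNC_004117 of the same locus ran the other way, with 0.278, 0.059 and 0.638 in LT and 0.929, 0 and 1.33 in ST, and the sum of both had 3.36, 1.4 and 3.67 and 1.11, 1.2 and 1.33 (log2 fold change -1.04 ± 0.35, adjusted p = 0.206). The summed difference was thus smaller. An unannotated mRNA with the same gene ID overlaps both on the same strand, and the division of reads between all these transcripts is uncertain. LNC_005407 (chr18:45413281-45415191), 1771 bp from HOXA9, had 0, 0.0581 and 0 in LT and 0.211, 0.193 and 0.17 in ST (adjusted p = 0.37). HOXA9 had 0.373, 0.808 and 6.39 in LT and 10.5, 16.7 and 11.7 in ST (adjusted p = 0.114). Each pair shares its libraries, so the agreement in direction within a pair is no separate evidence.

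Beyond HOX, LNC_003002 (chr13:87676752-87679816), 42251 bp from ZIC4, a factor of dorsal trunk structures, had 0.23, 0.125 and 0.218 in LT and was listed at 0 in ST (adjusted p = 0.276). ZIC4 had 0.826, 0.84 and 0.958 in LT and 0.0269, 0 and 0.0327 in ST (adjusted p = 0.00837).

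**Figure D5:**
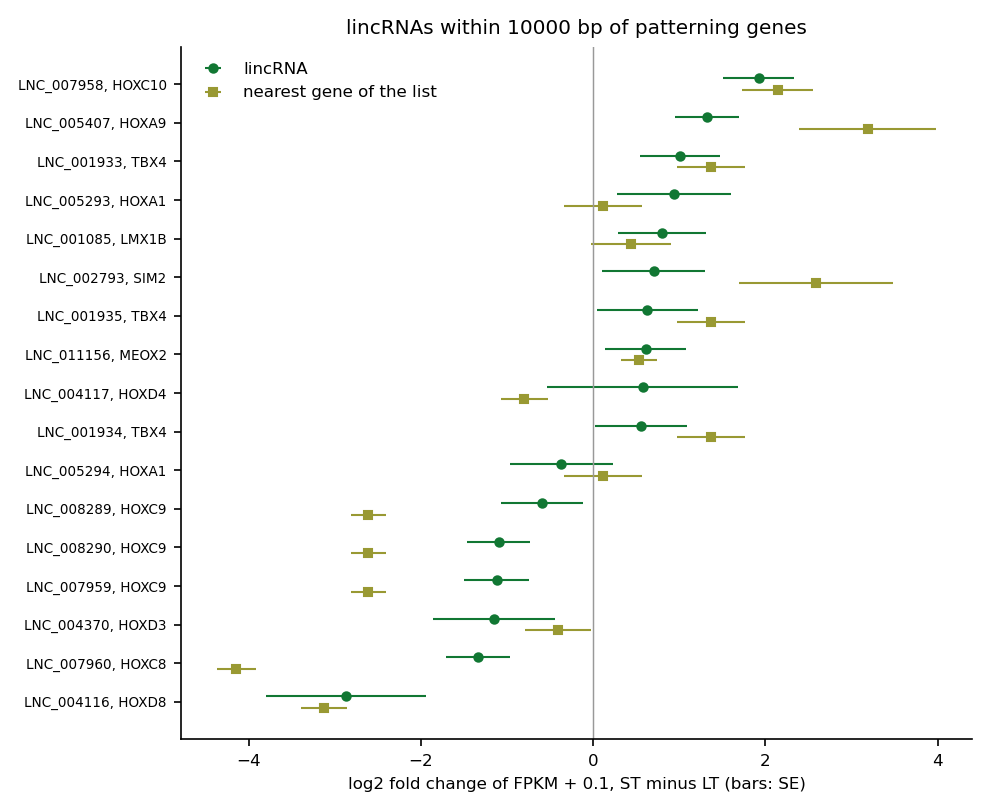
Points give the fitted log2 fold change (ST minus LT, FPKM + 0.1) with its SE for 17 lincRNAs within 10000 bp of 12 of the patterning genes (circles) and for the gene named beside each (squares). LNC_007958 and HOXC10 lie on the right, LNC_007960, HOXC8 and the HOXC9 lincRNAs on the left; members listed at 0 in a muscle have a fitted value that depends on the added 0.1.

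Near the fat and energy metabolism list lay 39 lincRNAs, 4 higher and 4 lower in ST at the unadjusted limits (all transcripts 4.12% and 2.84%), with a median log2 fold change of 0.25. LNC_008182, 723 bp from CPT1B, the muscle carnitine palmitoyltransferase, on the opposite strand, had 0.24, 0.223 and 0.405 in LT and 0.109, 0.0374 and 0.12 in ST (adjusted p = 0.488). CPT1B ran the other way, with 12, 17.8 and 25 in LT and 43, 39.6 and 98.9 in ST (adjusted p = 0.0969). LNC_004942, 5025 bp downstream of CEBPB, an adipogenic transcription factor, had 0.188, 0.24 and 0.409 in LT and 0.73, 1.59 and 0.439 in ST (adjusted p = 0.498). LNC_009605, 181 bp from ACADM, an acyl-CoA dehydrogenase, overlapped between the muscles, at 0.375, 0.5 and 0.331 and 0.321, 0.492 and 0.858.

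The 7 lincRNAs near LPL, the lipase that takes up circulating fat, came from overlapping transcripts on chromosome 14. LNC_003610 had 0.0308, 3.01 and 2.57 in LT and 0.000324, 0.000176 and 0 in ST (adjusted p = 0.468), while LNC_003608 of the same region had 0.0196, 0 and 0 in LT and 7.43, 0 and 0 in ST. LPL had 62.1, 74 and 62.6 in LT and 169, 173 and 186 in ST (log2 fold change 1.41 ± 0.19, adjusted p = 0.0287). Summed over the 5 lincRNAs of that locus the level was 2.78, 3.01 and 3.41 in LT, against 7.43, 6.76 and 2.9 in ST (adjusted p = 0.333). The gene separated the muscles, and the sum of these lincRNAs did not.

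Near the sarcomere and contraction list, 12 lincRNAs were found, 1 higher in ST at the unadjusted limits and 0 lower (all transcripts 4.12% and 2.84%), with a median of 0.39. That member was LNC_001223, 20434 bp from TNNI1, slow troponin I, and 15673 bp from CSRP1, a LIM-domain protein, and it overlaps the RefSeq interval of PHLDA3. It had 0.695, 0.519 and 0.721 in LT and 1.52, 1.17 and 3.03 in ST (log2 fold change 1.33 ± 0.40, adjusted p = 0.394), and TNNI1 had 587, 368 and 383 and 2325, 387 and 2494 (adjusted p = 0.295). CSRP1 had 2.38, 2.7 and 2.35 in LT and 6.32, 6.14 and 9.39 in ST and passed the test (adjusted p = 0.0415). LNC_003314, 218 bp upstream of ATP2A2, the slow-fibre calcium pump, had 0.514, 0.416 and 0.804 in LT and 1.78, 0.312 and 6.43 in ST. LNC_005463, 1948 bp from TNNT3, fast troponin T, had 0.294, 0.0648 and 0.637 in LT and 0.0267, 0.723 and 0.00728 in ST. ST replicate 2 was within or below the LT range for TNNI1 and LNC_003314, and the highest of all 6 values for LNC_005463.

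Near the myogenic regulation list lay 12 lincRNAs, 2 higher and 3 lower in ST at the unadjusted limits (all transcripts 4.12% and 2.84%), with a median of -0.08. The 3 lower ones lie 77381 to 83381 bp from MEF2A, a transcription factor of muscle differentiation. An annotated protein-coding gene without a symbol lies nearer to LNC_000836, at 45848 bp. LNC_000836 had 0.294, 0.206 and 0.126 in LT and was listed at 0 in ST. LNC_000837 of the same locus had 0.312, 1.47 and 0.243 and 0.00593, 0.0392 and 0.0208, and LNC_000308 had 0.211, 0.226 and 0.0438 and 0.0109, 0.0278 and 0.0096. In this order, their adjusted p were 0.281, 0.353 and 0.513 (limma). The sum of LNC_000836 and LNC_000837 did not pass either (log2 fold change -2.79 ± 0.49, SE, adjusted p = 0.0612). An unannotated mRNA with the same gene ID overlaps LNC_000836 on the same strand, so the division of reads between them is uncertain. MEF2A had 39.7 ± 8.8 FPKM in LT and 27 ± 5.3 in ST (SD, n = 3; adjusted p = 0.32). LNC_002675, 8182 bp from BCL6, a transcriptional repressor, had 0.00913, 0.0435 and 0.041 in LT and 0.509, 0.207 and 0.18 in ST (adjusted p = 0.38). With LNC_002674 of its locus, the sum in LT replicate 2 was 0.284, above the ST values of 0.207 and 0.18.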

How the data were processed

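Strand-specific reads were mapped by HISAT2 (Sus scrofa 11.1) and assembled by StringTie, and unannotated lncRNAs had to be non-coding by CNCI, CPC2 and PLEK. The authors deposited FPKM per transcript and library. FPKM keeps no counts (values run down to 1e-06), so the depth behind a value is unknown. limma 3.58.1 (R 4.3.3) was run on log2(FPKM + 0.1) with a variance trend, 2-sided, with Benjamini-Hochberg adjustment over 52102 transcripts or 30851 sums per gene ID. Calls required 0.05 for the adjusted p and more than 1, in size, for the log2 fold change. P-values measure the spread between these libraries, and fold changes of low transcripts are understated. On simulated data, limma recovered 155 of 200 spiked changes (log2 size 4) among 52102 transcripts, with 10 other calls. The spiked transcripts were drawn from those with a geometric mean of FPKM + 0.1 above 1. Few lincRNAs reach that level, so recovery at the level of most lincRNAs was not measured. Symbols matched 14657 of 20288 annotated coding gene IDs. Named lincRNAs were those of smallest p with 3 same-signed differences, of highest level, longest, with most exons, in 1 muscle only, at the threshold, or near called or listed genes; LNC_005586, LNC_009832, LNC_010448, LNC_004437 and the lower list members were chosen after their values were seen. Members and lists were chosen with earlier results of these data known. Alternatives were other pseudocounts, filters, scalings, no trend, the replicate number as a block, and leaving out each library. Values beside some genes are not reported here.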

Additional observations from a re-analysis of the deposited data

How the results depend on the processing

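The lincRNA loci passing the test numbered 4 as reported, 2 with a pseudocount of 0.01, 1 with a pseudocount of 1, 0 with no filter on FPKM, 2 with FPKM above 0.5, 2 after quantile normalization, 9 when rescaled to nuclear transcripts, 0 with no variance trend and 37 with the replicate block, and 0 to 10 with 1 library left out. The 14 nearest genes became 7 with a pseudocount of 1, 1 with no filter, 6 after quantile normalization, 24 when rescaled, 2 with no trend, 90 with the block and 0 to 18 with 1 library left out. No lincRNA transcript was called under these 8 settings, and 0 to 1 were with 1 library left out. At the unadjusted limits, higher and lower lincRNAs numbered 6 and 11 with a pseudocount of 1, 37 and 27 with FPKM above 0.5, 85 and 101 after quantile normalization, and 71 to 190 and 69 to 126 with 1 library left out. The methods do not tie replicate numbers to animals, and residuals of same-numbered libraries correlated at 0.0723 to 0.0914, of others at -0.0512 to -0.0316. Every library correlated best with its own number, a hint from the data and not from the design. With the block, the 37 loci (21 higher, 16 lower) held the 4 called without it, the 90 nearest genes were 61 higher and 29 lower, and 90 lincRNAs were higher and 80 lower at the unadjusted limits. No call of a single lincRNA transcript changed. Annotated genes alone moved the median distance to 16993 bp. Members numbered 1898, 1269 and 284 with FPKM above 0.1 in at least 2, 3 and 6 libraries, 615 above 0.5 and 228 above 1. Of 61 single fold changes, 7 changed sign under some of 14 settings. The causes were not tested. Without counts, the precision of levels near 0.1 FPKM cannot be given.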
